A study of Rattus norvegicus with 10 samples.

Results

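The T cell genes described here are 35 genes that encode the T cell receptor's CD3 chains, its proximal signalling proteins, T cell surface molecules and leukocyte genes that T cells share with other blood cells. They were chosen by name. Of the 35 genes, 32 were measured, by 42 probe sets (short groups of probes to one transcript), among 14217 genes measured in all. *Cd27*, *Ubash3a* and *Foxp3* had no probe set assigned to them alone in the annotation used and were not analysed here. The listed genes fall into pan-T genes, of which 17 of 19 were measured, helper or regulatory T cell genes (5 of 6), the CD8 genes (2 of 2), and genes shared with other leukocytes (8 of 8).

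The RNA came from whole mammary glands of female inbred rats, 5 of the ACI strain and 5 of the BN (Brown Norway) strain, and each rat gave 1 microarray. ACI rats (strain field ACI/SegHsd) are susceptible and BN rats resistant to mammary cancer induced by 17β-estradiol (E2), and the comparison asks how the glands of the strains differ under the hormone. All 10 rats carried subcutaneous E2 implants from 9 weeks of age for 12 weeks, so the strain difference without added E2 was not analysed here. In each strain, rats 1, 2 and 3 had animal numbers that open with S and rats 4 and 5 numbers that open with H; no source used here says what the letters mean. For the BN samples the protocol for RNA isolation mentions ACI rats, whereas the strain given is Brown Norway, and the strain given was used. Each strain was deposited as its own block of samples, so deposit and strain cannot be told apart. The array medians were 3.35 to 3.53 on the log2 scale. Correlations over all probe sets were 0.9813 to 0.9947 among ACI arrays, 0.9566 to 0.9923 among BN arrays and 0.9353 to 0.9599 between strains. The epithelial marker *Epcam* averaged 13.03 in ACI and 12.29 in BN rats, so both sets of arrays carried mammary epithelium.

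A T cell recognizes antigen through its receptor, whose antigen-binding chains cannot signal alone and are held in a complex with the CD3 chains and the zeta chain. The kinase Lck phosphorylates these chains, Zap70 docks on them, and Zap70 phosphorylates the scaffold Lat, from which the signal spreads. Helper and regulatory T cells carry CD4, and cytotoxic T cells carry a CD8 dimer. In the mammary gland, T cells lie within and around the ducts and in the stroma, and lymph nodes are embedded in the mammary fat pad. A gland sampled whole gives the RNA of all these compartments mixed, so that fewer T cells and less RNA per T cell cannot be told apart.

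The T cell receptor and pan-leukocyte genes were mostly higher in BN glands. Of the 32 measured genes, 16 were called higher in BN rats, 2 were called higher in ACI rats and 14 were not called by limma's moderated test at an adjusted p under 0.05, with adjustment over all probe sets. Over all 14217 genes, 9.12% were called higher in BN and 8.29% higher in ACI. All 5 BN rats lay above all 5 ACI rats in 11 of the 32 genes, against 8.32% of all genes, and all ACI rats lay above all BN rats in 1 gene, *Thy1*, against 8.3%. The median difference, BN minus ACI, was 1.65 on the log2 scale for the T cell genes and 0.0 over all genes. It was 1.58 with genes near background in a strain set at their bound. A gene is called near background where every rat of a strain read under 4. Within the groups, 9 of 17 pan-T genes, 1 of 5 helper or regulatory genes, 0 of 2 CD8 genes and 6 of 8 shared genes were called higher in BN. For the CD8 genes limma and the methods' unmoderated test each gave 0 also at an unadjusted p under 0.05.

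**Figure D1:**
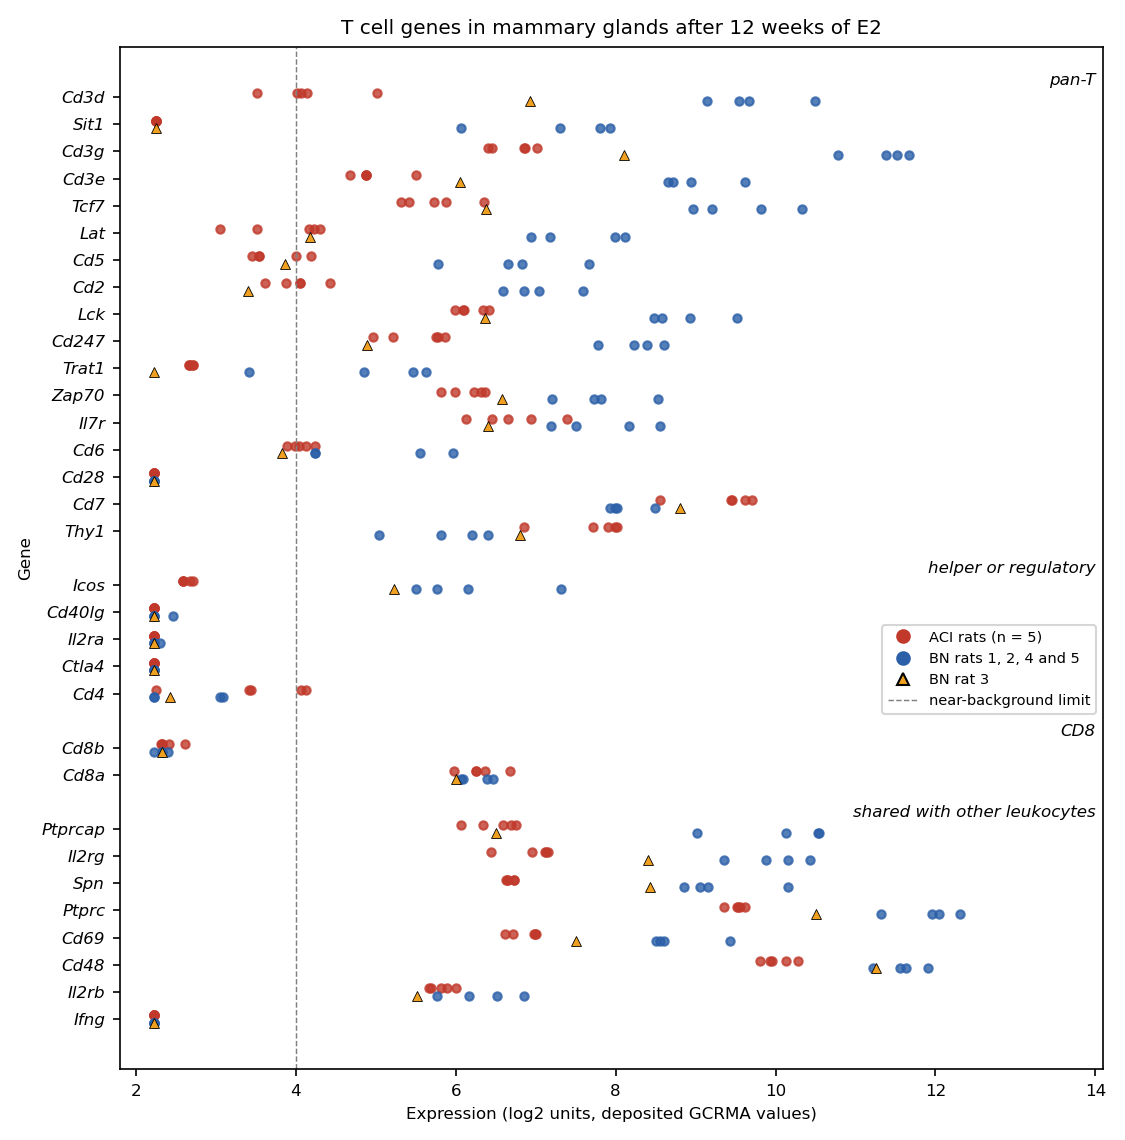
Each point is the deposited log2 expression of 1 gene (rows, grouped by list) in 1 rat, with ACI rats as red circles, BN rats 1, 2, 4 and 5 as blue circles and BN rat 3 as an orange triangle; the dashed line marks the near-background limit of 4. The CD3 genes, Icos and Spn are separated by strain, Cd8a overlaps, and the triangle lies left of the other BN rats in most genes that are higher in BN.

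The CD3 genes lie together in the genome. In the RefSeq annotation, *Cd3g*, *Cd3d* and *Cd3e* are neighbours on chromosome 8, and *Icos* follows *Cd28* and *Ctla4* on chromosome 9. The 250 bases before the start of these 4 genes, and before *Cd8a*, which was not called, are shown because the CD3 genes and *Icos* were higher together in BN. They are RefSeq sequences on the rat build GRCr8, written 5′ to 3′ along each gene. Capitals mark the letters AGGAAG or their reverse complement CTTCCT, a longer form of the GGAA core bound by ETS family factors. The shorter core alone is not marked. Overlaps with matches to the other motifs searched were not removed.
Cd3g, chr8:54183919-54184168, minus strand: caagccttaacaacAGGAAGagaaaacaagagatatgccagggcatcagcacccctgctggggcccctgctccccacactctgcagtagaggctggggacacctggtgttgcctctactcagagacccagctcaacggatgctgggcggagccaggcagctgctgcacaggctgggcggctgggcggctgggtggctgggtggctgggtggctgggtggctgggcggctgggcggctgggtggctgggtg
Cd3d, chr8:54185269-54185518, plus strand: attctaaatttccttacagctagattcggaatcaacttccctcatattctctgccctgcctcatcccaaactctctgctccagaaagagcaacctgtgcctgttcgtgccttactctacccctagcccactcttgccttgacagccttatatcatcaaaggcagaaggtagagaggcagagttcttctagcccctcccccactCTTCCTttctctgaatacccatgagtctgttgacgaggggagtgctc
Cd3e, chr8:54211771-54212020, minus strand: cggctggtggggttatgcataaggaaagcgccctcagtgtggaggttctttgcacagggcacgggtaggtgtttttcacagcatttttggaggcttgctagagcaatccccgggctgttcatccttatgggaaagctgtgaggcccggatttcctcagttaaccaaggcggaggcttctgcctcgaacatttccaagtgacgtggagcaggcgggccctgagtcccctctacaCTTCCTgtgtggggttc
Icos, chr9:69877549-69877798, plus strand: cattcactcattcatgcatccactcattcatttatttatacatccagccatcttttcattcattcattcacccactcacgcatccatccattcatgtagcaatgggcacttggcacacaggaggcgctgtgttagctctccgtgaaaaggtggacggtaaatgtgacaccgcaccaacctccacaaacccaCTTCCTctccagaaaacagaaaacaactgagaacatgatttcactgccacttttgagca
Cd8a, chr4:104923866-104924115, plus strand: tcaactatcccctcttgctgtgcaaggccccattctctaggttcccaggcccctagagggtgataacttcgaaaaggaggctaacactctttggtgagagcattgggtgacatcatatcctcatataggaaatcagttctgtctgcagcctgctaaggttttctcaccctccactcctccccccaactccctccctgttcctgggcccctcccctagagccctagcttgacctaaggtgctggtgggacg

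The windows before *Cd3g*, *Cd3d*, *Cd3e* and *Icos* each held AGGAAG 1 time on either strand, and the *Cd8a* window held it 0 times. The *Cd8a* window did hold the shorter GGAA, so it does not lack the core. Windows were given for 25 of the 35 listed genes. AGGAAG on either strand occurred before 12 of the 13 genes with a window that were called higher in BN (92.3%), before 5 of the 12 other listed genes with a window (41.7%), and before 31.3% of all 27457 genes with a window. The TCF and LEF letters CTTTGA or CTTTGT occurred before 38.5%, 33.3% and 28.9% of the same sets, and the RUNX letters TGTGGT or TGCGGT before 30.8%, 41.7% and 20.1%. The 12 other listed genes include *Cd27*, *Foxp3* and *Ubash3a*, which were not measured, and *Ubash3a* is among the 5 with AGGAAG. *Cd28* and *Ctla4*, also among the 12, read the lowest value of the data on all arrays and could not be called. The sets were formed by calls in these data, and the motifs were chosen with earlier results known. The shares are therefore no test of a link between letters and calls. A match of letters is a description of these windows and not a site.

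*Cd3d* encodes the delta chain of CD3. It read 5.01, 4.02, 4.14, 3.51 and 4.06 in ACI rats 1 to 5 and 10.49, 9.67, 6.93, 9.54 and 9.14 in BN rats 1 to 5. The strains did not overlap, and the lowest BN rat, rat 3, still lay 2.78 above the ACI mean. Mean levels were 4.15 ± 0.542 (SD, n = 5) in ACI and 9.15 ± 1.34 (SD, n = 5) in BN glands, a difference of 5.01 ± 0.629 (SE) on the log2 scale, or 32.1-fold (limma adjusted p = 0.0015). This was the largest difference of the 32 genes.

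*Cd3g*, the gamma chain of CD3, read 7.02, 6.87, 6.85, 6.40 and 6.46 in ACI rats 1 to 5 and 11.67, 10.78, 8.10, 11.52 and 11.38 in BN rats 1 to 5. Every BN rat again lay above every ACI rat, with rat 3 nearest to them. The difference was 3.97 ± 0.659 (SE), 15.7-fold (limma adjusted p = 0.00557). *Cd3e*, the epsilon chain shared by the CD3 dimers, read 5.50, 4.88, 4.88, 4.68 and 4.88 in ACI rats and 9.62, 8.72, 6.06, 8.94 and 8.65 in BN rats. Its strains did not overlap, and the difference was 3.43 ± 0.61 (SE), 10.8-fold (limma adjusted p = 0.00764). A second *Cd3e* probe set gave 2.40 (adjusted p = 0.0887), with BN rat 3 inside the ACI range.

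*Cd247*, which encodes the zeta chain that carries most of the receptor's signalling motifs, was not called. It read 5.87, 5.78, 5.22, 4.96 and 5.75 in ACI rats and 8.60, 7.78, 4.89, 8.39 and 8.23 in BN rats. BN rats 1, 2, 4 and 5 lay well above the ACI rats and BN rat 3 lay below all of them. The difference was 2.06, with a 95% interval of 0.48 to 3.64 (limma adjusted p = 0.0962), and a second probe set gave 1.98 (adjusted p = 0.0714).

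Among the 32 genes, the kinases and adaptors that act next to the receptor were called higher in BN, except *Trat1*. *Lck* read 6.42, 6.09, 6.34, 6.11 and 5.99 in ACI rats and 9.52, 8.58, 6.37, 8.93 and 8.48 in BN rats, a difference of 2.19 ± 0.526 (SE; adjusted p = 0.0292). BN rat 3 lay inside the ACI range. *Zap70* read 6.23, 6.37, 6.32, 5.81 and 5.99 in ACI rats and 8.53, 7.73, 6.58, 7.82 and 7.20 in BN rats, without overlap, a difference of 1.43 ± 0.334 (SE; adjusted p = 0.0264). A second *Zap70* probe set gave 1.11 (adjusted p = 0.0633).

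*Lat*, the membrane scaffold phosphorylated by Zap70, read 4.30, 4.23, 4.17, 3.51 and 3.05 in ACI rats and 7.99, 6.94, 4.18, 8.12 and 7.18 in BN rats. Only BN rat 3 fell within the ACI range, and the difference was 3.03 ± 0.735 (SE; limma adjusted p = 0.0302). *Sit1*, a transmembrane adaptor that dampens receptor signals, read 2.25 in every ACI rat and in BN rat 3, and 7.30, 6.07, 7.80 and 7.93 in BN rats 1, 2, 4 and 5. Its BN mean was at least 4.82-fold higher than the ACI mean, taken at the limit of 4 (fitted difference 4.02, adjusted p = 0.0373). *Trat1*, an adaptor that associates with the receptor complex, was near background in ACI rats at 2.66 to 2.71 and ranged from 2.23 in BN rat 3 to 5.63 in BN rat 1. It was not called (1.63, 95% interval 0.18 to 3.09, adjusted p = 0.15).

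*Tcf7* encodes TCF-1, a transcription factor of naive and memory-precursor T cells. It read 5.88, 5.73, 5.41, 5.32 and 6.36 in ACI rats and 10.33, 8.97, 6.38, 9.82 and 9.20 in BN rats. The strains did not overlap, but BN rat 3 lay just above ACI rat 5, and the difference was 3.20 ± 0.69 (SE), 9.19-fold (limma adjusted p = 0.0187). *Il7r*, the receptor chain for the survival cytokine interleukin-7, read 6.13 to 7.39 in ACI rats and 6.41 to 8.56 in BN rats on its representative probe set and was not called (0.85, adjusted p = 0.266). Its other probe set was called higher in BN, with no overlap between strains (2.40, adjusted p = 0.00138), so the *Il7r* probe sets disagree.

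The remaining pan-T surface genes split. *Cd5*, a scavenger-type receptor that tempers receptor signals, read 4.0, 4.19, 3.54, 3.45 and 3.54 in ACI rats and 7.67, 6.83, 3.86, 6.66 and 5.78 in BN rats, and was called higher in BN (2.42 ± 0.649 SE, limma adjusted p = 0.0444). *Cd2*, the adhesion receptor for Cd48, read 4.05, 4.05, 3.61, 3.88 and 4.43 in ACI rats and 7.59, 6.59, 3.40, 6.86 and 7.04 in BN rats. BN rat 3 lay below every ACI rat and the 4 other BN rats lay above them, and *Cd2* was not called (2.29, 95% interval 0.61 to 3.97, adjusted p = 0.0837). *Cd6*, which neighbours its relative *Cd5* on chromosome 1, read 3.89 to 4.24 in ACI rats and 3.83 to 5.97 in BN rats and was not called (0.71, adjusted p = 0.363). *Cd28*, the main costimulatory receptor of T cells, read 2.23, the lowest value of the data, on all 10 arrays.

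*Thy1* and *Cd7* went the other way. *Thy1*, a membrane glycoprotein of rat thymocytes that fibroblasts and other cells also carry, read 8.02, 7.91, 7.99, 7.72 and 6.86 in ACI rats and 5.82, 6.41, 6.80, 6.21 and 5.04 in BN rats. The strains did not overlap, and the difference was -1.64 ± 0.36 (SE), 3.13-fold higher in ACI (limma adjusted p = 0.0199). Its second probe set gave -1.99 (adjusted p = 0.0333). *Cd7*, an immunoglobulin-family receptor of T and natural killer cells, read 9.62, 9.71, 9.44, 9.45 and 8.56 in ACI rats and 8.02, 7.99, 8.80, 7.93 and 8.49 in BN rats. BN rat 3 alone lay above ACI rat 5, and the difference was -1.11 ± 0.261 (SE; adjusted p = 0.0265). BN rat 3 was the highest BN rat in both genes. Fibroblast genes, a list of 9 that includes *Thy1*, had mean levels of 8.58 to 9.16 in ACI and 8.76 to 10.31 in BN rats, and *Thy1* alone of them was called higher in ACI.

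**Figure D2:**
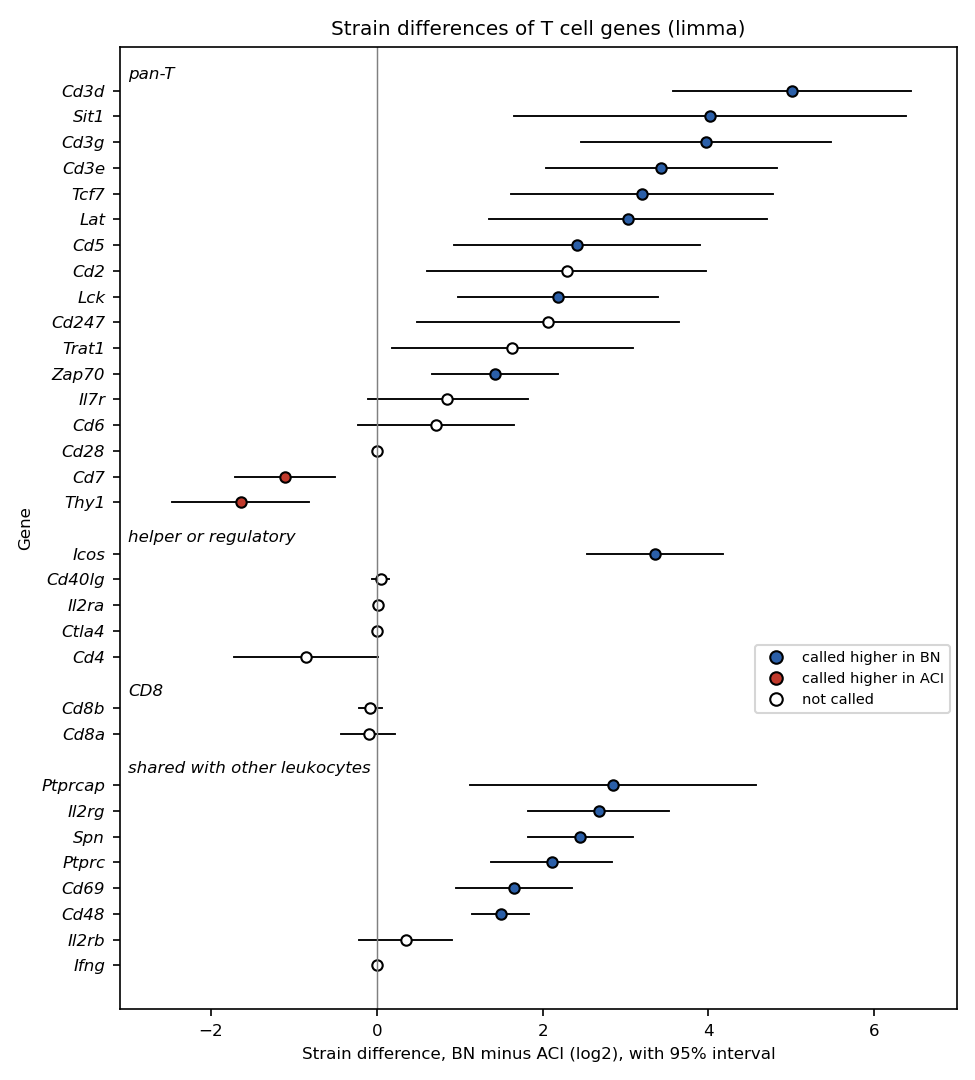
Points give the strain difference, BN minus ACI on the log2 scale, of each gene (rows, grouped by list) from limma over 5 rats a strain, and bars its 95% interval. Filled blue points were called higher in BN (16 genes), filled red points higher in ACI (Thy1 and Cd7), and open points were not called (14 genes).

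Of the helper or regulatory genes, only *Icos* was called. *Icos*, the inducible costimulator of activated, follicular helper and regulatory T cells, read 2.59, 2.59, 2.68, 2.59 and 2.72 in ACI rats and 7.32, 6.15, 5.23, 5.77 and 5.50 in BN rats. On this probe set all BN rats, rat 3 included, lay at 5.23 or higher and all ACI rats were near background. The BN mean was at least 3.98-fold higher (fitted difference 3.36 ± 0.357 SE, limma adjusted p = 0.000703). The other *Icos* probe sets were dimmer and not called, at 1.66 (limma adjusted p = 0.242) and 0.26 (adjusted p = 0.381). The first of them read 6.94, 5.72, 3.64, 2.97 and 2.93 in BN rats 1 to 5 and at most 2.93 in ACI rats. The other read at most 2.88 in any BN rat. The separation of every BN rat thus rests on the representative probe set.

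*Cd4*, the co-receptor that defines helper T cells and that rat macrophages also carry, read 3.42, 4.13, 3.44, 4.07 and 2.25 in ACI rats and 2.23, 2.23, 2.43, 3.05 and 3.09 in BN rats. All BN rats were near background, and *Cd4* was not called (-0.86, 95% interval -1.72 to 0.01, adjusted p = 0.207). *Cd40lg*, the helper signal to B cells, and *Il2ra*, the high-affinity interleukin-2 receptor chain, read at most 2.46 and 2.30 on any array. The checkpoint receptor gene *Ctla4* read 2.23 on all 10 arrays. These 3 genes were near background in both strains, and *Icos* is the one gene of the group with BN levels above background.

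The CD8 genes were not called. *Cd8a*, the alpha chain, read 6.68, 6.26, 5.98, 6.26 and 6.37 in ACI rats and 6.39, 6.07, 6.01, 6.47 and 6.09 in BN rats. Every BN value lay within the ACI range, and the difference was -0.10 with a 95% interval of -0.43 to 0.22 (limma adjusted p = 0.728). The interval of *Cd3d*, for comparison, was 3.57 to 6.44. The other *Cd8a* probe sets were near background in both strains, at -0.06 and -0.01. *Cd8b*, the beta chain and the neighbour of *Cd8a* on chromosome 4, was near background in both strains, at 2.31 to 2.61 in ACI and 2.23 to 2.40 in BN rats. The CD8 readout therefore rests on 1 probe set. Genes of natural killer and cytotoxic cells had list means of 4.80 to 5.15 in ACI and 4.96 to 5.75 in BN rats. Of these 12 genes, 1 was called higher in BN (*Cst7*, 3.23) and 1 higher in ACI (*Gzma*, -1.64). These counts are close to the shares of all genes, 9.12% higher in BN and 8.29% higher in ACI.

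Of the 8 genes that T cells share with other leukocytes, 6 were called higher in BN, and *Il2rb* and *Ifng* were not called. *Cd48*, the ligand of Cd2 on many blood cells, read 9.80, 10.28, 9.93, 9.95 and 10.13 in ACI rats and 11.91, 11.56, 11.25, 11.63 and 11.22 in BN rats. Here BN rat 5 and not rat 3 was the lowest, and the difference was 1.50 ± 0.149 (SE; limma adjusted p = 0.000537), the smallest adjusted p of the 32 genes. *Spn*, the sialoglycoprotein CD43, read 6.73, 6.65, 6.64, 6.63 and 6.73 in ACI rats and 10.15, 9.06, 8.43, 9.16 and 8.85 in BN rats, a difference of 2.45 ± 0.278 (SE; adjusted p = 0.000953). The strains were apart in both genes.

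*Ptprc*, the leukocyte common antigen CD45, read 9.36, 9.53, 9.56, 9.52 and 9.62 in ACI rats and 12.04, 11.32, 10.50, 12.31 and 11.96 in BN rats, a difference of 2.11 ± 0.32 (SE; limma adjusted p = 0.00361). The strains did not overlap on this probe set, whereas the second *Ptprc* probe set gave 2.37 with BN rat 3 inside the ACI range (adjusted p = 0.0678). *Ptprcap*, a protein associated with CD45 in lymphocytes, read 6.59, 6.76, 6.69, 6.07 and 6.34 in ACI rats and 10.13, 9.02, 6.50, 10.53 and 10.54 in BN rats, a difference of 2.85 ± 0.755 (SE; adjusted p = 0.0416). BN rat 3 lay inside the ACI range, as it did for *Lck* and *Lat*.

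*Il2rg*, the common gamma chain of several cytokine receptors, read 7.13, 6.96, 7.16, 7.12 and 6.44 in ACI rats and 10.43, 9.36, 8.41, 9.88 and 10.15 in BN rats, a difference of 2.68 ± 0.371 (SE; limma adjusted p = 0.00232). *Cd69*, an early activation marker that holds lymphocytes in tissue, read 6.62, 7.0, 6.98, 6.72 and 6.99 in ACI rats and 9.43, 8.55, 7.50, 8.61 and 8.51 in BN rats, a difference of 1.66 ± 0.309 (SE; adjusted p = 0.00962). Neither gene overlapped between strains. *Il2rb*, the beta chain of the interleukin-2 and interleukin-15 receptors, read 5.67 to 6.0 in ACI and 5.51 to 6.85 in BN rats and was not called (0.35, 95% interval -0.21 to 0.91, adjusted p = 0.472). *Ifng*, the cytokine interferon-gamma, read 2.23 on all 10 arrays.

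The BN rats were not alike. BN rats 1, 2, 4 and 5 lay above all 5 ACI rats in 23, 19, 23 and 21 of the 32 genes, against 30.2%, 28.9%, 26.7% and 20.2% of all genes in the same rats. BN rat 3 did so in 11 of the 32, against 27.4% of all genes, and lay below all ACI rats in 6, a share close to the 20.9% of all genes. The 11 were *Cd3d*, *Cd3e*, *Cd3g*, *Zap70*, *Tcf7*, *Icos*, *Cd48*, *Cd69*, *Il2rg*, *Ptprc* and *Spn*. The 6 were *Cd247*, *Cd2*, *Cd6*, *Trat1*, *Thy1* and *Il2rb*. Among pan-T genes the counts above all ACI rats were 14, 12, 5, 14 and 13 of 17 in BN rats 1 to 5, and among shared genes 7, 6, 5, 7 and 7 of 8.

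BN rat 3 held the lowest BN value in 22 of the 26 genes with a single lowest BN rat, and in 15 of the 16 genes called higher in BN, with *Cd48* as the exception. Its gap to the mean of the other BN rats was -5.03 for *Sit1*, -3.62 for *Cd2*, -3.55 for *Ptprcap* and -3.24 for *Cd3g*. The gap was smaller for *Icos* (-0.96), *Spn* (-0.88) and *Cd48* (-0.33). BN rat 1 was the highest BN rat in 18 of 29 genes. The median of the 32 genes against the ACI mean was 2.54, 1.64, 0.00, 2.16 and 1.84 in BN rats 1 to 5. Without BN rat 3, 19 genes were called higher in BN, with *Cd2*, *Cd247* and *Trat1* added to the 16.

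**Figure D3:**
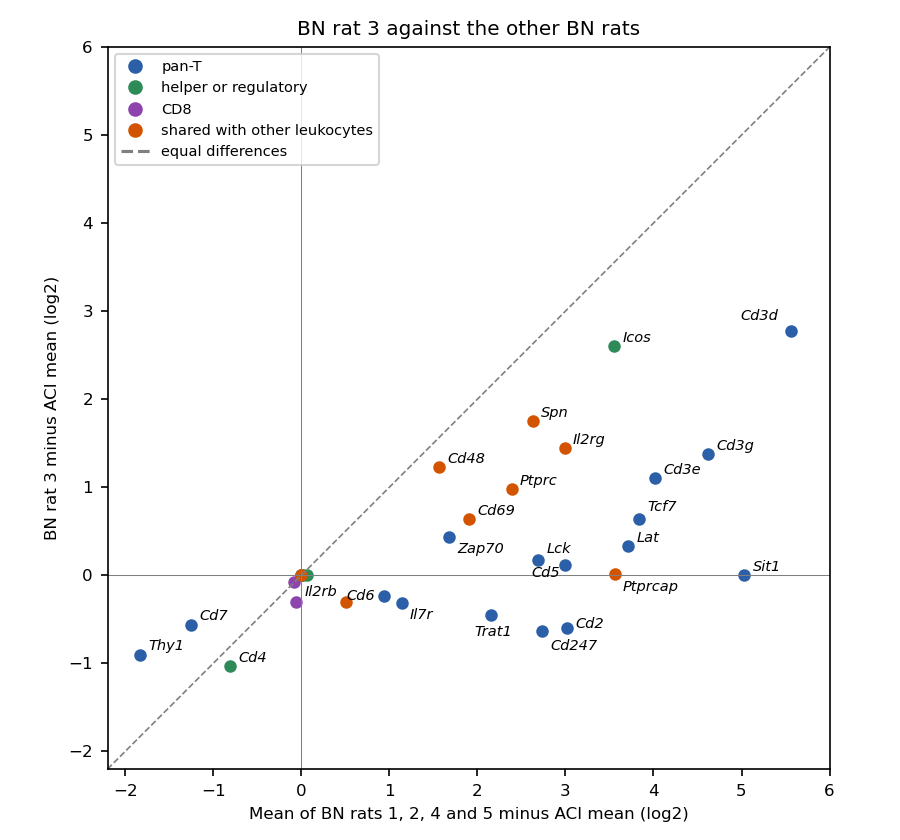
Each point is 1 gene, with the mean of BN rats 1, 2, 4 and 5 minus the ACI mean on the horizontal axis and BN rat 3 minus the ACI mean on the vertical axis, both in log2 units; colours give the gene lists and the dashed line equal differences. Genes higher in the other BN rats lie under the line, with Sit1 and Ptprcap near 0 in BN rat 3 and Cd3d at 2.78.

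Other cell types moved with the T cell genes in the same rats. B cell genes averaged 3.26 to 3.37 in ACI rats and 8.55, 7.50, 3.18, 8.04 and 8.41 in BN rats 1 to 5. In this list 6 of 7 genes were called higher in BN, all 6 near background in every ACI rat, and the defining marker *Ms4a1* read 2.23 in all ACI rats and in BN rat 3. Lymph node stroma and follicle genes averaged 6.04 to 6.31 in ACI rats and 9.21, 8.53, 6.73, 8.88 and 8.84 in BN rats, with 5 of 10 called higher in BN and 2 higher in ACI. The 2 were *Glycam1* (-0.51) and *Tnfsf11* (-3.25), and the paper counts *Tnfsf11* among genes of mammary gland development. *Glycam1* averaged 15.71 in ACI and 15.21 in BN rats, near the highest value in the data, 15.8. Which cells carried *Glycam1* was not tested. BN rat 3 lay above all ACI rats in 4 of the 5 genes called higher in BN, all but *Ccl19*. These calls used BN rat 3, so the count is not a separate result. The pan-T means were 4.87 to 5.25 in ACI and 7.91, 7.07, 5.25, 7.67 and 7.25 in BN rats. BN rat 3 was thus lowest among BN rats in all 3 lists. The part of B cells and lymph node tissue in the T cell gene differences was not tested.

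Macrophage genes did not follow that order: their list mean was 8.25 to 8.79 in ACI rats and 9.37 to 10.01 in BN rats, highest in BN rat 3, with 7 of 13 called higher in BN. The shared leukocyte genes averaged 6.76 to 6.91 in ACI rats and 9.15, 8.36, 7.54, 8.82 and 8.75 in BN rats, with rat 3 lowest among BN rats but above all ACI rats. Mammary epithelial genes averaged 10.76 to 11.16 in ACI and 10.13 to 11.06 in BN rats, with 4 of 9 called higher in ACI. Skeletal muscle genes ranged from 7.37 to 11.70 in ACI and 4.06 to 10.55 in BN rats, with 0 of 9 called by limma or by the methods' unmoderated test (4 at an unadjusted p under 0.05, all lower in BN). As with macrophage genes, BN rat 3 was the highest BN rat in fibroblast genes (10.31) and mammary epithelial genes (11.06). It was the lowest BN rat in skeletal muscle genes (4.06) and natural killer and cytotoxic genes (4.96). The part of these cell types in the T cell gene differences was not tested.

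**Figure D4:**
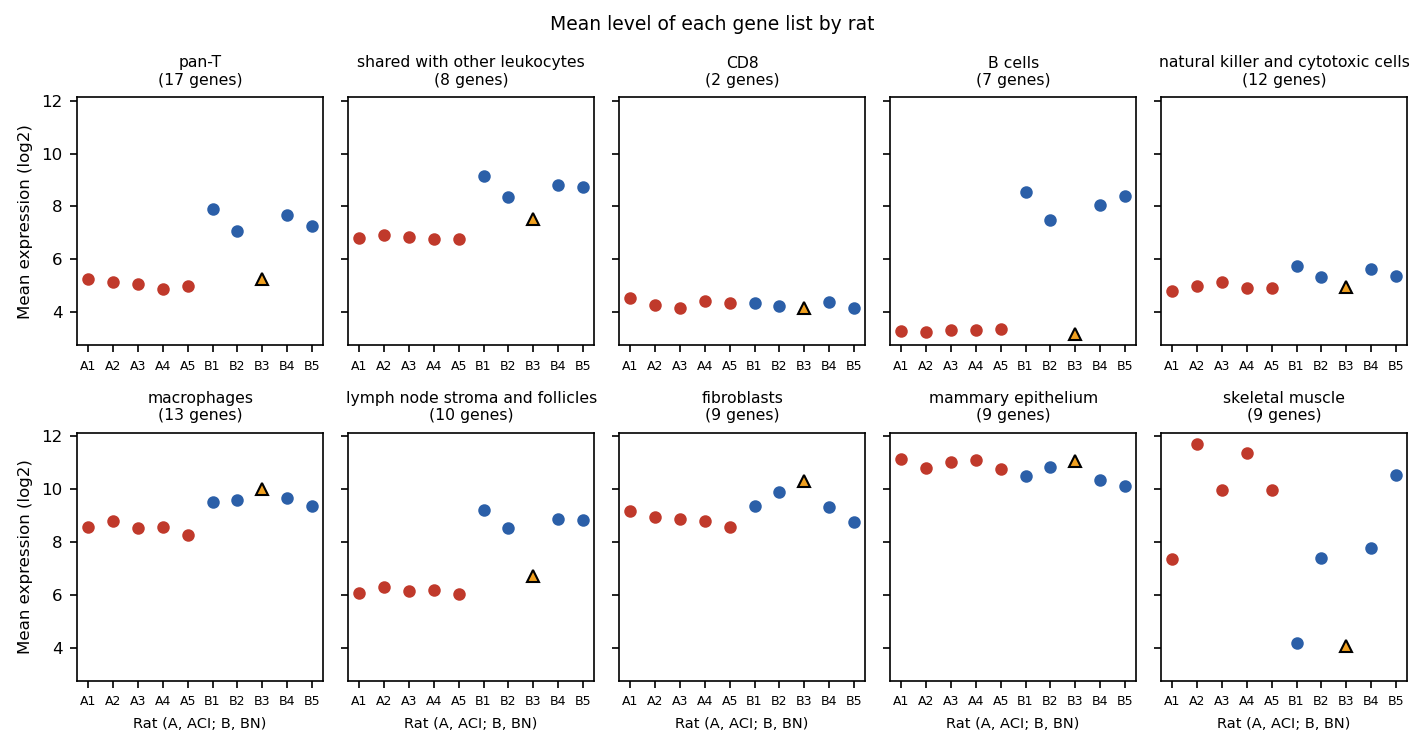
Each panel plots the mean log2 expression of 1 gene list in each rat, with ACI rats A1 to A5 as red circles, BN rats B1, B2, B4 and B5 as blue circles and BN rat 3 (B3) as an orange triangle. The triangle drops to or near the ACI level for pan-T (5.25) and B cell (3.18) genes. It is the highest rat for macrophage (10.01) and fibroblast (10.31) genes.

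Other genes of the T cell pathways were read from 5 lists. Of 118 listed genes, 75 were measured; 22 were called higher in BN and 4 higher in ACI, beside the 9.12% and 8.29% of all genes, and their median difference was 0.47. The receptor signalling list held most of these calls, with 14 of 25 higher in BN and 0 higher in ACI by limma and by the methods' unmoderated test (16 and 0 at an unadjusted p under 0.05). Its largest differences were *Rhoh*, a GTPase-family protein needed for Zap70 function (4.04, limma adjusted p = 0.022), *Sh2d1a*, the adaptor SAP (fitted 3.19, at least 3.79-fold, adjusted p = 0.0387), and *Skap1*, an adaptor of integrin activation (fitted 3.14, at least 3.91-fold, adjusted p = 0.0443). *Sh2d1a* read 7.76, 6.44, 2.85, 6.95 and 5.61 in BN rats 1 to 5 and *Skap1* 7.97, 6.97, 3.05, 6.71 and 5.14. BN rat 3 was level with the highest ACI rats in both. It lay above all ACI rats in 11 of the 14 called genes, among them *Rhoh*, at 4.58 in BN rat 3 and at most 4.31 in ACI rats, and not in *Sh2d1a*, *Skap1* and *Ptpn6*. The calls used BN rat 3, which favours genes raised in it, so this count is not a separate result. Among the 14 genes the gap of BN rat 3 to the mean of the other BN rats ranged from -4.52 for *Rhoh* to 0.24 for *Plcg1*. Apart from *Plcg1* and *Lcp2* (0.03), the gap was negative. Which cells of the gland carried these transcripts was not tested.

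Among T cell transcription factors 2 of 14 were called, both higher in BN, against 9.12% of all genes. These were *Klf2*, a factor of quiescent, recirculating T cells and of endothelium (2.34, limma adjusted p = 0.00281), and *Maf* (1.03, adjusted p = 0.00178). At an unadjusted p under 0.05 in limma, 6 were higher in BN and 2 higher in ACI. The largest difference of the list was that of *Lef1*, which was not called (fitted 2.90, at least 3.08-fold, adjusted p = 0.0551). The paper counts *Lef1* as differentially expressed on its arrays and reports significantly higher *Lef1* RNA in BN glands by quantitative PCR. *Lef1* read 7.38, 6.25, 2.80, 6.96 and 4.72 in BN rats 1 to 5 and at most 3.11 in ACI rats. In the co-receptor list 2 of 5 were called, *Cd86*, a ligand of Cd28 on antigen-presenting cells, higher in BN (1.79, adjusted p = 0.00103) and *Tnfrsf9*, the costimulatory receptor 4-1BB, higher in ACI (-2.09, adjusted p = 0.000472). Of 18 cytokine and receptor genes, *Il4r* was called higher in BN (1.36, adjusted p = 0.00138) and *Ifngr2* higher in ACI (-1.37, adjusted p = 4.66e-06), and 9 were near background in both strains. The called genes of these lists are also expressed outside T cells.

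In the homing list 4 of 13 genes were called higher in BN and 2 higher in ACI, beside 9.12% and 8.29% of all genes. *Ccl21* and *Ccl19*, the chemokines that draw T cells into lymph nodes and are made by stroma, were higher in BN by 3.58 (limma adjusted p = 0.00565) and by a fitted 3.52, at least 6.53-fold (adjusted p = 0.0397). *Ccl19* read 8.67, 7.31, 3.12, 7.39 and 7.04 in BN rats 1 to 5 and at most 3.46 in ACI rats, so that BN rat 3 was at the ACI level. *Ccl21* read 12.80, 12.02, 10.18, 12.60 and 12.72 in BN rats 1 to 5 and at most 9.35 in ACI rats, so that all BN rats, rat 3 included, lay above them. The integrin chain *Itgb7* was higher in BN (2.09, adjusted p = 0.031), as was *S1pr1*, the receptor by which lymphocytes leave lymph nodes (1.51, adjusted p = 0.0343). *Itgal*, the alpha chain of the leukocyte integrin LFA-1, read 6.96, 6.76, 6.76, 7.07 and 7.04 in ACI rats and 2.23, 2.88, 2.23, 2.32 and 4.71 in BN rats. It was thus called higher in ACI (-4.04, adjusted p = 0.00103), opposite to *Ptprc* and *Spn*. *Cxcr4* was also higher in ACI (-0.77, adjusted p = 0.014).

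The strain difference was also read within the animal number series. *Cd3d* differed by 4.64 among S rats, 3 a strain, and by 5.55 among H rats, 2 a strain, and *Icos* by 3.61 and 2.98. In the S rats *Icos*, *Cd48* and *Spn* were called higher in BN, and in the H rats *Cd3g* and *Sit1*, while *Thy1*, *Cd7* and *Cd4* were called higher in ACI in the S rats and 0 genes in the H rats by limma (20 higher in BN and 0 higher in ACI at an unadjusted p under 0.05). Shares over all genes in the fits of S rats alone and H rats alone were not analysed here, so these counts have no background beside them. With the series as a block, 15 of the 16 calls higher in BN were kept, without *Cd5*, and both calls higher in ACI. The interaction of strain with series, fitted in limma, was called for 0 of the 32 genes, with 0 at an unadjusted p under 0.05, against 428 of 14217 genes in all.

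The 16 calls were not equally firm. *Cd3d*, *Cd3e*, *Cd3g*, *Icos*, *Cd48*, *Cd69*, *Il2rg*, *Ptprc* and *Spn* were called whichever of the 10 rats was left out, and *Tcf7* in 8 of these 10 fits. *Zap70* was called in 3. *Cd5*, *Lat*, *Lck*, *Ptprcap* and *Sit1* were called in 1, the fit without BN rat 3. *Thy1* was called higher in ACI in 5 and *Cd7* in 3 of these fits.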

How the data were processed

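RNA from 5 ACI and 5 BN female rats, treated with E2 for 12 weeks, was hybridised to Affymetrix whole-genome rat arrays, 1 array per rat. The submitters' processing notes name GCRMA 2.18.1, with which the authors made log2 values per probe set. GCRMA corrects background by probe sequence and pulls dim probe sets to a common low value; the deposited log2 values were used as given. Between 30.6% and 33.3% of probe sets sat at the lowest value, 2.23, on each array, and differences of dim genes are thereby understated. No source used here says which arrays were normalised together. Precision is limited by the number of arrays.

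Of 31099 probe sets, 57 controls were left out. Among the 31042 tested, 20826 carried 1 gene symbol in the platform annotation (20758 matched to the RefSeq gene table by gene ID), 436 several and 9780 none. A gene was represented by its probe set with the highest mean over the 10 arrays among those annotated to it alone. Strains were compared with limma 3.58.1 (R 4.3.3) in a model with strain alone, two-sided, with Benjamini-Hochberg adjustment over all tested probe sets. The fit was tested on simulated data. Where every rat of a strain read under 4, a fold is given as a bound against the higher of 4 and the value on each array.

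All 35 listed genes are accounted for, and in each pathway list the called genes with the largest differences are named, up to 3 in each direction. *S1pr1*, *Lef1*, *Plcg1*, *Cst7* and *Gzma* and the markers *Epcam*, *Ms4a1*, *Glycam1* and *Tnfsf11* were named after their values were seen. The members, lists and motifs were chosen with earlier results of these data known. Alternatives were a replicate block, the animal number series as a block and each series alone, quantile normalisation, median centring, filters on low values, the methods' t-test, a trended variance, other choices of probe sets, and leaving out rats.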

Additional observations from a re-analysis of the deposited data

Results flagged for a closer look

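In each strain, the highest or lowest rat of a gene stood apart from the other 4 by Dixon's criterion in 10 of 64 gene and strain groups, of which 55 had any spread. Chance flags about 1 group in 20. BN rat 3 stood below the other BN rats in *Cd3e* at 6.06, with the others at 8.65 to 9.62, in *Cd3g* at 8.10 (others 10.78 to 11.67), in *Cd247* at 4.89 (others 7.78 to 8.60) and in *Cd2* at 3.40 (others 6.59 to 7.59). ACI rat 5 stood below the other ACI rats in *Cd7* at 8.56 (others 9.44 to 9.71), in *Thy1* at 6.86 (others 7.72 to 8.02) and in *Il2rg* at 6.44 (others 6.96 to 7.16). ACI rat 1 stood above the others in *Cd3e* at 5.50 (others 4.68 to 4.88). The remaining flags were near background, *Cd40lg* at 2.46 in BN rat 1 and *Il2ra* at 2.30 in BN rat 4, where all others read 2.23.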

How the results depend on the processing

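No difference changed direction among those called under any alternative. The replicate numbers did not pair the rats: deviations of same-numbered ACI and BN rats correlated at -0.255 to 0.226. With the replicate number as a block, 8 of the 16 T cell genes stayed called higher in BN and 1 of 2 higher in ACI, and 9 of the 75 pathway genes were called higher in BN. Leaving out 1 rat gave 9 to 19 T cell genes higher in BN and 0 to 3 higher in ACI, with 9 without ACI rat 3 or 4, 10 without BN rat 2 or 4 and without ACI rat 1, 2 or 5, and 19 without BN rat 3; pathway genes ranged from 14 to 27 higher in BN, with 14 without ACI rat 3, and from 4 to 7 higher in ACI, with 7 without BN rat 3. The calls higher in ACI fell to 0 without any of ACI rats 1 to 4 or BN rat 1, and to 1 without BN rat 2 or 4. Without BN rats 4 and 5 the T cell counts were 9 and 1. In S rats alone, 3 T cell genes and 8 pathway genes were called higher in BN; in H rats alone, 2 and 0, with 0 and 0 higher in ACI by limma (at an unadjusted p under 0.05, 20 and 25 higher in BN and 0 and 4 higher in ACI). Shares over all genes in the S and H fits were not analysed here. Without probe sets of several transcripts 1 gene was higher in ACI, since the *Cd7* probe set is then absent, and with means over probe sets 7 pathway genes were. The interaction of strain with series was called for 0 to 1 genes without 1 rat, *Cd4* without ACI rat 4 and *Il2ra* without BN rat 5. Fits on fewer rats have fewer residual degrees of freedom; other causes were not tested. The other alternatives kept the counts within 1.5 times. Genes near background, among them *Cd8b*, *Cd28*, *Ctla4* and *Ifng*, have no measured strain difference at this signal.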
